A study of Mus musculus with 6 samples.

Results

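Glycosaminoglycan chain synthesis and sulfation was followed through 47 named genes of the mouse growth plate, of 19938 genes with a probe set annotated to 1 gene. The members were taken by gene symbol and split by role into 8 genes of sulfate and sugar-nucleotide supply, 6 of the linker tetrasaccharide, 15 of chondroitin and dermatan sulfate, 15 of heparan sulfate and 3 sulfotransferases of the keratan sulfate type. Of the 47, 46 had such a probe set, 1 for each gene, and all 46 passed the filter on dim probe sets; Ndst1 was not analysed here. The chondrocytes, whose growth plates lengthen the long bones, came from femurs and tibiae of mice at postnatal day 30. The groups were 3 samples of conditional Lkb1 mutant mice and 3 samples of control mice, all on a mixed background of FVB, 129S6 and C57CL/6. The gene Lkb1, now named Stk11, codes for a kinase upstream of AMPK. The Cre driver, the alleles of the controls and the number of animals per sample are not given in the sources used here. Nothing in the labels beyond the word biological says that samples came from separate animals, so a p-value covers only the spread between arrays, which may be technical.

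Sulfated glycosaminoglycans are long sugar chains built in the Golgi on core proteins such as aggrecan. For chondroitin, dermatan and heparan sulfate, a xylose, a pair of galactoses and a glucuronic acid form the linker on the protein, and the chain is then extended as chondroitin sulfate, from which dermatan sulfate is made, or as heparan sulfate. Sulfotransferases place sulfate groups on the sugars, using the activated sulfate donor PAPS, and the pattern of these groups sets which growth factors the chain holds. Chondroitin sulfate on aggrecan gives cartilage its swelling pressure, while heparan sulfate in the growth plate binds hedgehog, FGF and BMP ligands.

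Levels are given as log2(intensity + 1) and differences as mutant minus control on that scale, each with its standard error (SE) and its adjusted p from limma, fitted over 17020 genes with Benjamini-Hochberg adjustment. A gene was called at an adjusted p of 0.05. Stk11 itself was at 7.39, 7.51 and 7.52 in mutant replicates 1, 2 and 3, against 8.68, 9.08 and 9.67 in control replicates 1, 2 and 3 (adjusted p = 0.00387); where its probes lie relative to the deleted part was not analysed here. All 16 chondrocyte markers, among them Col2a1, Acan and Sox9, exceeded the background on every array. Their mean was 11.13 to 11.24 in the mutants and 11.17 to 11.34 in the controls. None of the 16 was called higher and 1 was called lower, Sox6, with a difference of -0.38 (SE 0.09, adjusted p = 0.0282). The difference was below 0 in 12 of the 16, while 55% of all genes tested were above 0. Background means here the 95% point of 1035 olfactory receptor probe sets on the same array, 6.49 to 6.73 in the mutants and 6.40 to 6.65 in the controls. Of the members, 40 exceeded it on every array, Hs6st2 and Chst7 on none, and Sulf1, Hs3st1, Hs3st3a1 and B3galt6 on all mutants but 2 of 3 controls.

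The samples also differed in other cell types, and in bulk RNA fewer cells of a type and less RNA per cell cannot be told apart. A set of 25 marrow markers (erythroid, neutrophil, B lymphoid) averaged 6.03 to 6.30 in the mutants, against 8.50, 9.19 and 9.90 in control replicates 1, 2 and 3, and 20 of the 25 fell. Of these markers, 5 exceeded the background in all mutants and 22 in all controls. Rhag, Klf1, Cd79a, Mpo, Elane, Vpreb3 and Hemgn, all among those that fell, had mutant means of 4.14 to 5.47. These means lay under the filter of 5.56, which the genes passed through the controls. Markers of fibrous tissue and tendon had means of 10.36 to 10.46 in the mutants and 9.26 to 9.58 in the controls, and 6 of 10 rose. Endothelial markers had means of 7.20 to 7.42 in the mutants and 6.59 to 6.72 in the controls, and 8 of 10 rose. Kdr, 1 of these 8, exceeded the background on 1 mutant array and on no control. Macrophage markers had means of 7.95 to 8.34 in the mutants and 7.27 to 7.51 in the controls, and 8 of 9 rose. Osteoclast markers had means of 7.44 to 7.52 in the mutants and 7.01 to 7.31 in the controls, and 2 of 8 rose and 1 fell. Adipocyte markers had means of 6.71 to 6.92 in the mutants and 6.21 to 6.64 in the controls, and 2 of 5 rose. Skeletal muscle markers had means of 6.89 to 7.18 in the mutants and 6.66 to 6.78 in the controls, and 2 of 6 rose. Myl1, 1 of these 2, was below background on every array. The control means of Kdr and Myl1, 5.54 and 5.36, lay under the filter of 5.56, which both passed through the mutants. Osteoblast markers had means of 9.26 to 9.34 in the mutants and 8.97 to 9.35 in the controls, and 1 of 6 rose and 1 fell. The 1 that rose, Col1a1, is also among the markers of fibrous tissue and tendon that rose. Beside these counts, 7.84% of all genes tested were called higher and 6.82% lower. The part of the cell types above in the results on glycosaminoglycan genes was not tested.

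Of the 46 members tested, 14 were called, 11 higher and 3 lower in the mutants. That is 30.4% of the members, beside 14.7% of all genes tested. In the mutants 23.9% of the members were higher and 6.52% lower, beside 7.84% and 6.82% of all genes. Without Hs6st2 and Chst7, which were below background on every array, 13 of 44 were called (29.5%), 10 higher, an alternative added after the values were seen. Heparan sulfate genes took 6 of the 11 increases, Hs6st2 included, and none of the decreases. The median difference was 0.38 for the 14 heparan sulfate genes, 0.09 for the 15 chondroitin genes, -0.11 for the linker genes, -0.024 for the supply genes and -0.025 for the keratan type, beside 0.029 for all genes. In 25 members (54.3%, beside 36.7% of all genes) the groups did not overlap, 15 with every mutant above every control (32.6%, beside 20% of all genes) and 10 with every mutant below (21.7%, beside 16.7%). The calls rest on few arrays. The count of members called was 5, 7 and 5 without mutant replicates 1, 2 and 3, and 5 without control replicate 2. Without control replicates 1 and 3 it was 17 and 13. Chst15, Hs2st1, Hs3st1, Sulf1 and Chst2 were called with any 1 of the 6 arrays left out.

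**Figure D1:**
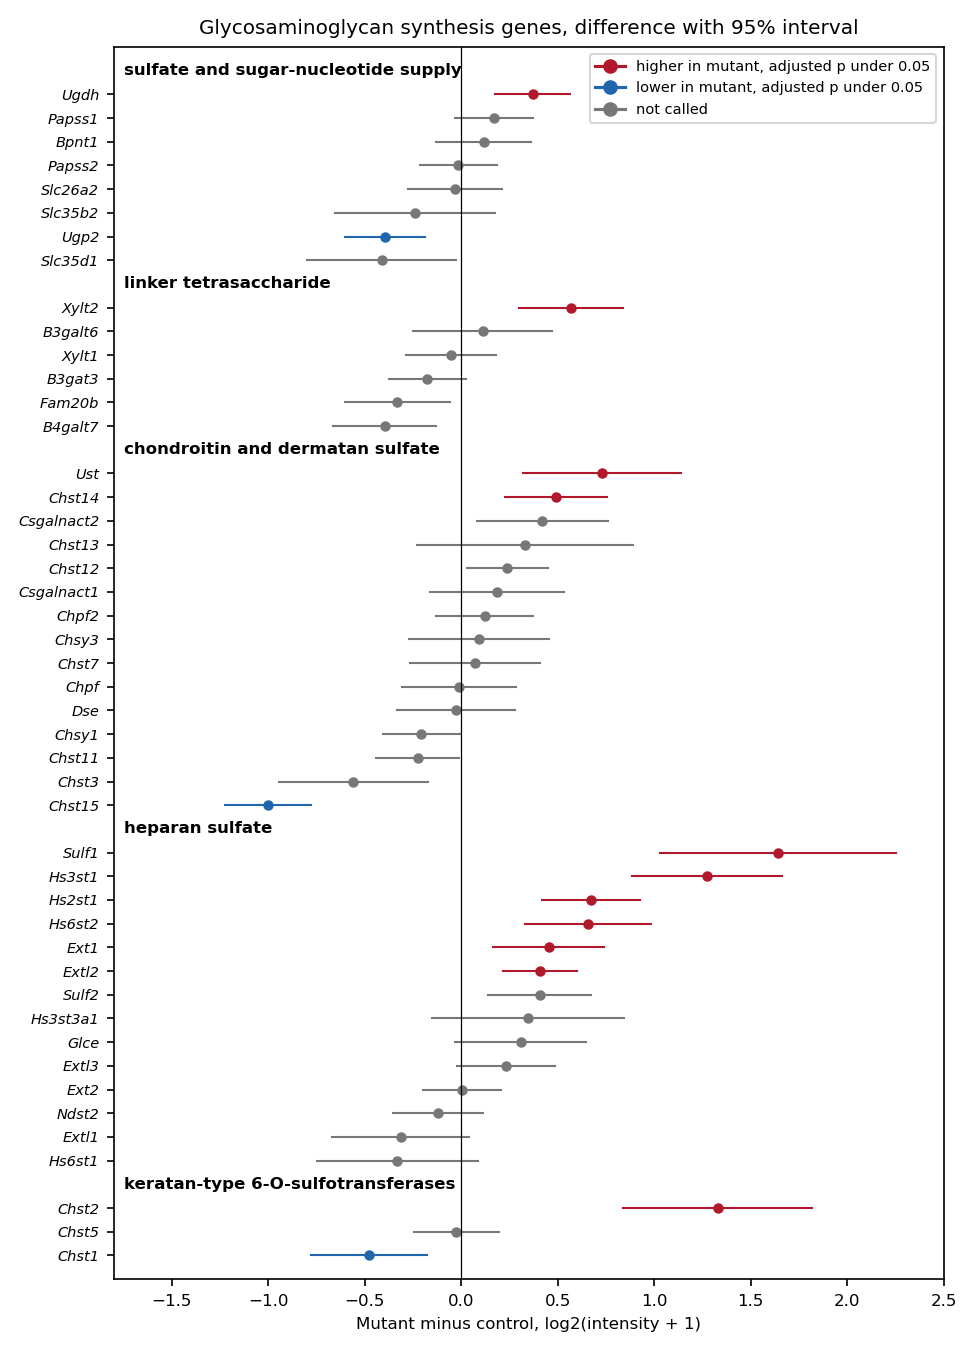
Difference between Lkb1 mutant and control (mutant minus control, log2(intensity + 1)) for the 46 measured members, ordered within each role; points are differences of means with 3 arrays per group and lines are 95% intervals from limma. Red marks the 11 members called higher, blue the 3 called lower and grey those not called. Hs6st2, in red, was below background on every array, so its difference cannot be sized. No heparan sulfate gene is blue.

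**Figure D2:**
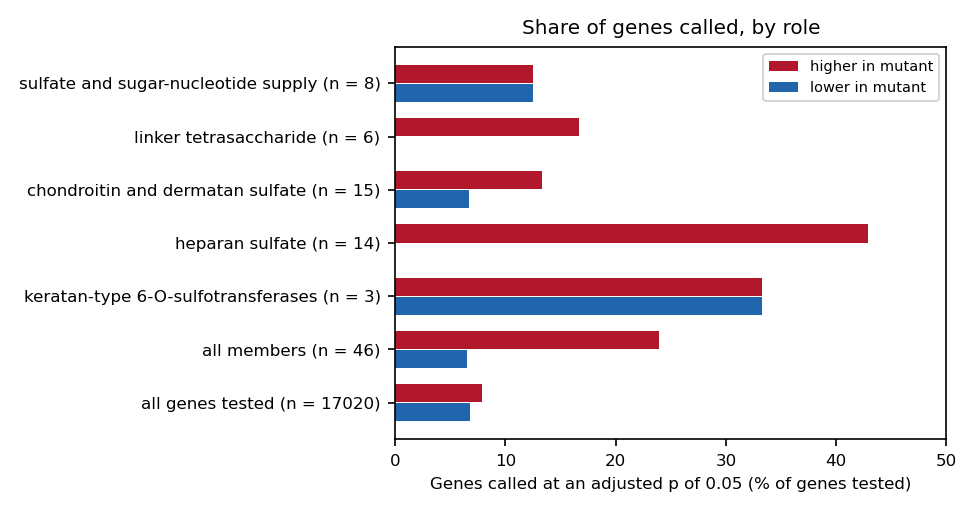
Share of genes called at an adjusted p of 0.05 (x axis, percent of genes tested) in each role, in all members and in all 17020 genes tested, with red bars for genes higher in the mutants and blue bars for genes lower in the mutants. The heparan sulfate role has 42.9% higher and none lower, beside 7.84% and 6.82% in all genes. That share includes Hs6st2, which was below background on every array, and without Hs6st2 it is 38.5% (5 of 13).

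The stretches of 200 bases ahead of the transcript start are shown for 5 members that were called, to set the control regions of genes that moved in both directions side by side. Hs3st1, Chst2, Extl2 and Xylt2 were higher and Chst15 was lower in the mutants. They are RefSeq sequences of build GRCm38.p6, 5′ to 3′; for Extl2 and Chst15, which have 2 listed starts each, 1 is shown; the Extl2 window was chosen after the matches were seen because it holds the letters, which that of its other start does not, and neither Chst15 window holds any. Capitals mark ACAATG, a core of SOX sites, ACGTG, the core of hypoxia response elements and of many E-boxes, or TGACGT, a core of cAMP response elements, on either strand.
Hs3st1 (chr5:39644632-39644831, minus strand): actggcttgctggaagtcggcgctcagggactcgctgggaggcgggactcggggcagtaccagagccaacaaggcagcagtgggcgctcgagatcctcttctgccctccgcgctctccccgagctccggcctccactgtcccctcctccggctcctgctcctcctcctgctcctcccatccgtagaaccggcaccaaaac
Chst2 (chr9:95407271-95407470, minus strand): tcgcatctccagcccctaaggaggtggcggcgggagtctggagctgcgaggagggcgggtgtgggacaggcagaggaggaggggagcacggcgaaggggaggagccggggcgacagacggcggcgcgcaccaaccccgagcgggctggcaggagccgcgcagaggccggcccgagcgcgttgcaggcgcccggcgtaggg
Extl2 (chr3:116008097-116008296, plus strand): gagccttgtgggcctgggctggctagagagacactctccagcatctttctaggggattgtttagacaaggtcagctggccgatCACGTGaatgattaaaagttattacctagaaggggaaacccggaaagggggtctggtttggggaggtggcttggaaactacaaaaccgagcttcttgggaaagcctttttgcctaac
Xylt2 (chr11:94677494-94677693, minus strand): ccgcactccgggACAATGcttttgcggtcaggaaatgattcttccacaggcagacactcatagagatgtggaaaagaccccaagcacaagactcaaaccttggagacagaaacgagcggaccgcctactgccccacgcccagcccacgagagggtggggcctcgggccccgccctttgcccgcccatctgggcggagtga
Chst15 (chr7:132317229-132317428, minus strand): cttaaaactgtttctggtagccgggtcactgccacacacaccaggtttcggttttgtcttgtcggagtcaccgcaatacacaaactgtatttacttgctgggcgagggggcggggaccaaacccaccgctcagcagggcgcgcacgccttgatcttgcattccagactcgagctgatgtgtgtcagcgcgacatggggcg

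The Extl2 window shown holds the palindrome CACGTG, which matches ACGTG on both strands, and Xylt2 holds ACAATG 188 bases ahead of its start. No letters searched for are in the windows of Hs3st1, Chst2 and Chst15, which says nothing on the factors that act there. In the 300-base promoters of the table, from 250 bases before to 50 after the start, 39 members had an entry. ACGTG was in 11 of these 39 (28.2%, beside 19.6% of all 32851 promoters), TGACGT in 6 (15.4%, beside 7.51%) and ACAATG in 1 (2.56%, beside 12.6%). A member with several promoters counted if any of them matched, which raises its share. Of the 9 members called higher with an entry, 2 held ACGTG, and of the 3 called lower 1 did. TGACGT was in the promoters of Chpf, Papss1, Chsy1, Dse, Hs3st3a1 and Hs6st2, of which only Hs6st2 was called.

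Among the genes that supply sulfate and sugar nucleotides, those of the sulfate donor were not called, while 2 enzymes that follow each other on the way to UDP-glucuronate were called in opposite directions. The 2 calls are 25% of the 8 supply genes, beside 14.7% of all genes tested. Ugp2, which makes UDP-glucose, was at 8.57, 8.65 and 8.55 in the mutants, against 8.97, 9.08 and 8.90 in the controls. It fell by 0.39 (SE 0.09, adjusted p = 0.0264). Ugdh, which oxidises UDP-glucose to the UDP-glucuronate that every chondroitin and heparan chain needs, was at 11.83, 11.81 and 11.83 in the mutants, against 11.50, 11.49 and 11.37 in the controls. It rose by 0.37 (SE 0.08, adjusted p = 0.0257), and for both genes the groups did not overlap. Without mutant replicates 1, 2 and 3 and control replicate 2, left out in turn, the adjusted p was 0.0899, 0.0921, 0.111 and 0.07 for Ugdh. For Ugp2 it was 0.0944, 0.0738, 0.121 and 0.0917 with the same arrays left out.

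Slc26a2, the sulfate transporter of the cell membrane that is mutated in diastrophic dysplasia, was at 10.62, 10.55 and 10.58 in the mutants and at 10.80, 10.53 and 10.51 in the controls. Its difference was -0.031, with a 95% interval of -0.28 to 0.21. Papss2, the PAPS synthase that cartilage depends on, was at 12.10, 12.11 and 12.05 in the mutants and at 12.18, 12.11 and 12.03 in the controls. Its difference was -0.016, with a 95% interval of -0.21 to 0.18, and for both genes the groups overlapped. Papss1, its paralog, differed by 0.17 and Bpnt1, which clears the by-product of sulfation, by 0.12 (adjusted p = 0.243 and 0.527). Slc35d1, which carries UDP-glucuronate and UDP-N-acetylgalactosamine into the endoplasmic reticulum and is needed for cartilage chondroitin sulfate, was at 8.53, 8.47 and 8.45 in the mutants, against 9.29, 8.74 and 8.66 in the controls. Every mutant lay below every control, but control replicate 1 stood well above the other controls and the gene was not called (difference -0.41, adjusted p = 0.143). Slc35b2, which carries PAPS into the Golgi, had a still wider control spread, from 8.22 to 8.97, around mutants at 8.30 to 8.37 (adjusted p = 0.426).

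The linker genes held 1 call, in 1 of the pair of xylosyltransferases that start chondroitin, dermatan and heparan sulfate chains. That is 16.7% of the 6 linker genes, near the 14.7% of all genes tested. Xylt2 was at 7.50, 7.35 and 7.46 in the mutants, against 7.06, 6.86 and 6.68 in the controls. All mutants were above all controls, and the gene rose by 0.57, 1.48-fold (SE 0.12, adjusted p = 0.018). The adjusted p was 0.0729 and 0.0802 without mutant replicates 1 and 3, and 0.0646 without control replicate 2. Xylt1, the other xylosyltransferase, was at 11.45, 11.37 and 11.35 in the mutants and at 11.57, 11.46 and 11.29 in the controls, with a difference of -0.054 (95% interval -0.29 to 0.18). B4galt7, which adds the first galactose, was at 7.49, 7.31 and 7.34 in the mutants, against 7.97, 7.72 and 7.64 in the controls. It lay lower without overlap and just missed the threshold (difference -0.40, adjusted p = 0.0581); without control replicate 3 the adjusted p was 0.0383, and with any other array left out it was 0.0866 to 0.19. Fam20b, the kinase that phosphorylates the linker xylose, differed by -0.33 (adjusted p = 0.106) and B3gat3, which adds the glucuronic acid, by -0.18 (adjusted p = 0.224), both without overlap between the groups. B3galt6, which adds the second galactose, differed by 0.11, with overlap.

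Of the chondroitin and dermatan sulfate genes, 2 rose and 1 fell, which is 20% called, beside 14.7% of all genes. Chst15, which adds a 6-O-sulfate to N-acetylgalactosamine that already carries a 4-O-sulfate, was at 8.49, 8.46 and 8.44 in the mutants, against 9.61, 9.41 and 9.38 in the controls. The mutants lay close to each other and well below all controls. The fall of 1.00, or 2.00-fold, had the smallest p of all 46 members (SE 0.10, adjusted p = 0.0011), and leaving out any 1 array gave an adjusted p of at most 0.0101. Ust, which sulfates the uronic acid at its 2-O position, was at 8.56, 8.10 and 8.44 in the mutants, against 7.91, 7.67 and 7.33 in the controls. It rose by 0.73 (SE 0.18, adjusted p = 0.0323), 1.66-fold. Chst14, which sulfates dermatan at the 4-O position, was at 7.51, 7.38 and 7.51 in the mutants, against 7.14, 7.02 and 6.77 in the controls. It rose by 0.49 (SE 0.11, adjusted p = 0.0286), while Dse, the epimerase that makes dermatan from chondroitin, differed by -0.028 (95% interval -0.33 to 0.28).

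Both increases depended on single arrays for their call. For Ust the adjusted p was 0.114 and 0.12 without mutant replicates 1 and 3, and 0.0908 and 0.0525 without control replicates 2 and 3. For Chst14 it was 0.102, 0.0727 and 0.118 without mutant replicates 1, 2 and 3, and 0.0768 without control replicate 2. Chst3, the 6-O-sulfotransferase of chondroitin that is mutated in a human spondyloepiphyseal dysplasia, was at 7.91, 8.35 and 8.13 in the mutants, against 8.38, 8.79 and 8.90 in the controls. Mutant replicate 2 lay only just below control replicate 1, and the difference of -0.56 was not called (adjusted p = 0.0644). Without control replicate 1 it was -0.71, with an adjusted p of 0.0136, and with any other array left out the adjusted p was 0.0797 to 0.193. Chst11, the main 4-O-sulfotransferase of growth plate chondroitin in mice, was at 11.39, 11.39 and 11.34 in the mutants, against 11.72, 11.57 and 11.50 in the controls. The groups did not overlap, and the difference of -0.23 was not called (adjusted p = 0.152). Chst12, another 4-O-sulfotransferase, differed by 0.24, also without overlap (adjusted p = 0.125), and Chst13, the third, by 0.33 with overlap. Chst7, a second 6-O-sulfotransferase, did not exceed the background on any array.

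The chondroitin polymerases and the initiating transferases were not called. Chsy1, a chondroitin synthase, was lower in every mutant than in any control, by 0.21 (adjusted p = 0.153). Chsy3, Chpf and Chpf2, which work with it in the polymerase, differed by 0.09, -0.012 and 0.12, with overlap. Csgalnact2, which adds the first N-acetylgalactosamine, was at 10.05, 9.58 and 9.74 in the mutants, against 9.51, 9.41 and 9.18 in the controls (difference 0.42, adjusted p = 0.0999). Its paralog Csgalnact1 differed by 0.19 with overlap.

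Of the 14 heparan sulfate genes measured, 6 rose (42.9%, beside 7.84% of all genes tested) and none fell. The difference was above 0 in 11 (78.6%, beside 55% of all genes tested). Hs6st2, 1 of the 6, was below background on every array; without it 5 of 13 rose, a count added after the values were seen. The genes that rose encode a polymerase, a transferase that can end chains, 3 sulfotransferases and an extracellular sulfatase. Sulf1, a secreted enzyme that removes 6-O-sulfates from heparan chains, was at 8.65, 8.48 and 8.82 in the mutants, against 7.32, 7.36 and 6.35 in the controls. Control replicate 3 did not exceed the background, and the mutants (SD 0.17) were spread less widely than the controls (SD 0.57). The rise of 1.64 (SE 0.26, adjusted p = 0.00734), 3.12-fold, was the largest difference of all 46 members over the 6 arrays. The control below background limits its size and this rank. Without control replicate 3 the rise was 1.31 for Sulf1 and 1.37 for Hs3st1. Sulf2, the paralog of Sulf1, was at 10.25, 10.46 and 10.39 in the mutants, against 10.00, 10.11 and 9.78 in the controls. It was higher without overlap, by 0.41, and just missed the threshold (SE 0.11, adjusted p = 0.0539).

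**Figure D3:**
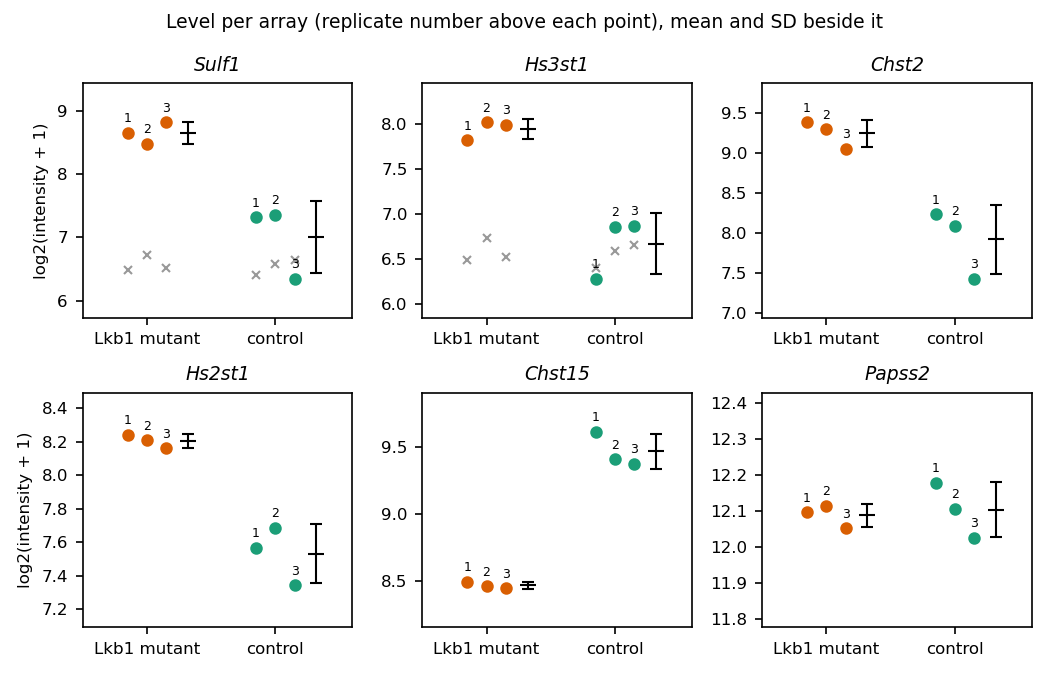
Level (y axis, log2(intensity + 1), scale differs between panels) of the 5 members called with any 1 array left out, and of Papss2, in each mutant array (orange) and control array (green); bars are mean and SD of 3 arrays, and grey crosses in the panels of Sulf1 and Hs3st1 mark the background point of each array. Mutants and controls do not overlap for Sulf1, Hs3st1, Chst2, Hs2st1 and Chst15, and overlap for Papss2.

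Hs3st1, which adds the 3-O-sulfate of the antithrombin-binding sequence, was at 7.82, 8.02 and 7.99 in the mutants, against 6.28, 6.86 and 6.87 in the controls. All mutants were clear of all controls, of which replicate 1 was below the background. The rise was 1.27 (SE 0.17, adjusted p = 0.00352), 2.41-fold. Hs2st1, the only 2-O-sulfotransferase of heparan sulfate in mice, was at 8.24, 8.21 and 8.16 in the mutants, against 7.57, 7.69 and 7.34 in the controls. It rose by 0.67 (SE 0.11, adjusted p = 0.00757), 1.59-fold, and its adjusted p was at most 0.039 with any 1 array left out. For Hs3st1 and Sulf1 the same limit was 0.0226 and 0.0392.

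Ext1, which polymerizes heparan sulfate together with Ext2 and is mutated in hereditary multiple exostoses, was at 9.12, 8.96 and 9.04 in the mutants, against 8.77, 8.63 and 8.35 in the controls. It rose by 0.45 (SE 0.12, adjusted p = 0.0481), close to the threshold. The adjusted p was 0.153, 0.106 and 0.15 without mutant replicates 1, 2 and 3, and 0.111 and 0.0598 without control replicates 2 and 3. Ext2 differed by 0.0032, with a 95% interval of -0.20 to 0.20. Extl2, which adds a sugar to the phosphorylated linker and so can end a chain, was at 7.23, 7.27 and 7.14 in the mutants, against 6.78, 6.81 and 6.82 in the controls. It rose by 0.41 (SE 0.08, adjusted p = 0.0181), with an adjusted p of 0.07, 0.0835 and 0.0614 without mutant replicates 1, 2 and 3 and of 0.0619 without control replicate 2. Extl3, which starts the heparan chain, differed by 0.23 and Extl1 by -0.31, both with overlap (adjusted p = 0.211 and 0.22).

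Hs6st2, a 6-O-sulfotransferase, was called higher (adjusted p = 0.0211) on a signal too low to size. Its levels of 6.15, 6.28 and 6.18 in the mutants and 5.39, 5.40 and 5.86 in the controls did not exceed the background on any array, so no difference or fold change is given, and its control mean of 5.55 lay under the filter of 5.56, which it passed through the mutants. The adjusted p was 0.0647, 0.0839 and 0.0794 without mutant replicates 1, 2 and 3 and 0.0783 without control replicate 2. Hs6st1, its paralog, was at 7.61 to 7.79 in the mutants and 7.79 to 8.48 in the controls, with a difference of -0.33 (adjusted p = 0.269). Glce, the epimerase of heparan sulfate, differed by 0.31 and Hs3st3a1, a second 3-O-sulfotransferase, by 0.35, both with overlap. Without control replicate 1 these differences were 0.46 (adjusted p = 0.0283) and 0.61 (adjusted p = 0.0092). Without control replicate 3 they were 0.17 (adjusted p = 0.382) and 0.16 (adjusted p = 0.623), and neither gene was called with any other array left out. Ndst2, which replaces N-acetyl by N-sulfate groups, differed by -0.12 (adjusted p = 0.483).

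The 3 sulfotransferases of the keratan sulfate type, which act on galactose or N-acetylglucosamine, split. Of the 3, 2 were called (66.7%, beside 14.7% of all genes tested). Chst2, an N-acetylglucosamine 6-O-sulfotransferase, was at 9.39, 9.30 and 9.05 in the mutants, against 8.24, 8.09 and 7.43 in the controls. It rose by 1.33 (SE 0.21, adjusted p = 0.00704), 2.51-fold, with an adjusted p of at most 0.037 when any 1 array was left out. Chst1, the galactose 6-O-sulfotransferase of keratan sulfate, was at 7.69, 7.71 and 7.91 in the mutants, against 8.11, 8.50 and 8.14 in the controls. It fell by 0.48 (SE 0.13, adjusted p = 0.048), with an adjusted p of 0.152, 0.153 and 0.0881 without mutant replicates 1, 2 and 3 and of 0.118 without control replicate 2. Chst5, an N-acetylglucosamine 6-O-sulfotransferase of the cornea, was at 7.21, 7.26 and 7.08 in the mutants and at 7.16, 7.16 and 7.31 in the controls, with a difference of -0.025.

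Related enzymes were also set against each other within each array, which shows only whether they changed unequally. Of 11 pairs, the within-array difference did not overlap between the groups in 8; each of these had an exact two-sided permutation p of 0.1, the smallest that 3 against 3 arrays can give, and an adjusted p of 0.138 over the 11 pairs. For 2 of the 8, Hs6st1 minus Hs6st2 and Chst3 minus Chst7, the second gene was below background on every array; without them, 6 of 9 pairs did not overlap. The share among other pairs of genes was not measured. Sulf1 minus Sulf2 was -1.60, -1.98 and -1.56 in the mutants, against -2.68, -2.75 and -3.43 in the controls, a shift of 1.24 toward Sulf1. Xylt1 minus Xylt2 was 3.95, 4.02 and 3.89 in the mutants, against 4.51, 4.60 and 4.61 in the controls, a shift of -0.62 toward Xylt2. Chst11 minus Chst12, both 4-O-sulfotransferases, shifted by -0.46 and Ext1 minus Ext2 by 0.45. Chst3 minus Chst11, a 6-O- against a 4-O-sulfotransferase of chondroitin, was -3.24 ± 0.22 in the mutants and -2.91 ± 0.39 in the controls (SD, n = 3 each). The groups overlapped, with an exact permutation p of 0.3, and sulfation itself was not measured.

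**Figure D4:**
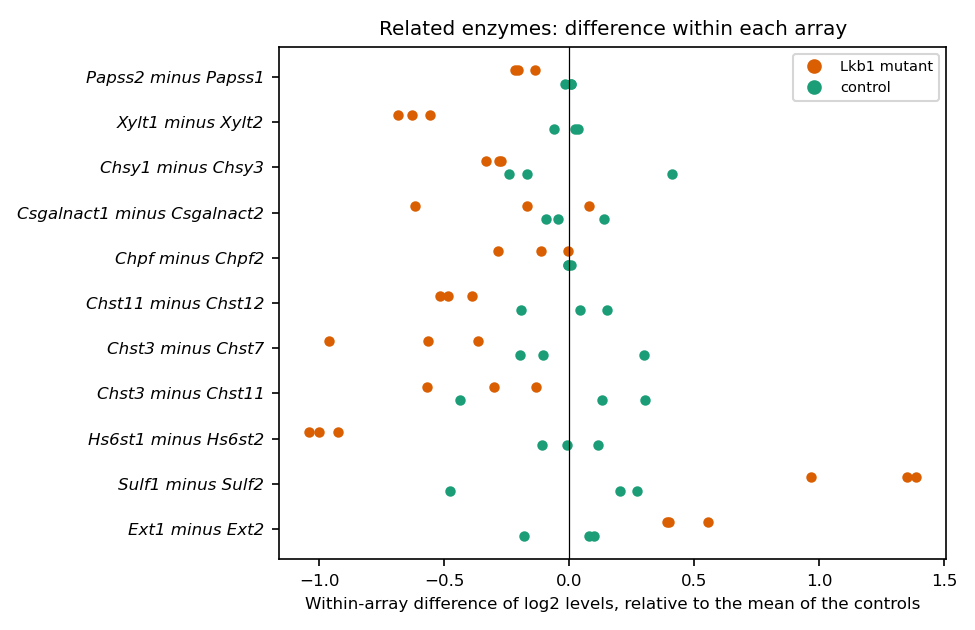
Within-array difference of 11 pairs of related enzymes (x axis, log2 level of the first gene minus that of the second, relative to the mean of the controls) in each mutant (orange) and control (green) array. In 8 pairs the colours do not overlap, among them Sulf1 minus Sulf2, shifted by 1.24, and 2 that use Hs6st2 or Chst7, both below background on every array.

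Among the controls, members were often ordered opposite to the marrow signal. In 26 of the 46 members (56.5%), beside 21.4% of all genes, the 3 controls were ordered opposite to their marrow marker level, highest in control replicate 1, which had the least. In 6 members (13.0%, beside 29.5%) they were ordered with it. Each member was therefore also set against control replicate 1 alone, a value with no spread between controls and no test. The 14 called members, whose groups did not overlap, lie on the same side of control replicate 1 by that fact alone, so only the size of the difference is of use. Hs3st1 differed by 1.66 there, Sulf1 by 1.33, Chst2 by 1.01, Hs2st1 by 0.64 and Chst15 by -1.15. For Hs3st1, control replicate 1 was below the background (6.28 against 6.40), which limits the size of its difference.

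Of the 32 members not called, 20 had every mutant below control replicate 1, 7 had every mutant above it and 5 were mixed. In 19 of these 32 the controls were ordered opposite to the marrow markers, which makes control replicate 1 the highest control. That order favours the count of 20, and the share among all genes was not measured. The median of the 32 against control replicate 1 was -0.11. Of the 8 with the largest differences from it, Slc35d1 differed by -0.81, Slc35b2 by -0.64, Extl1 by -0.63, B4galt7 by -0.59, Fam20b by -0.55 and Chst11 by -0.35. The controls of these 6 genes were ordered opposite to the marrow markers. In the other direction Chst13, ordered with the marrow markers, differed by 0.67 and Sulf2, ordered neither way, by 0.37. Genes picked by a large difference from control replicate 1 tend to have that array highest or lowest among the controls. These orders therefore follow in part from the choice, and a link to marrow content was not tested. Linker genes had a median of -0.23 against control replicate 1 and heparan sulfate genes one of 0.27, beside 0.051 for all genes. The median of all members was -0.076 there.

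**Figure D5:**
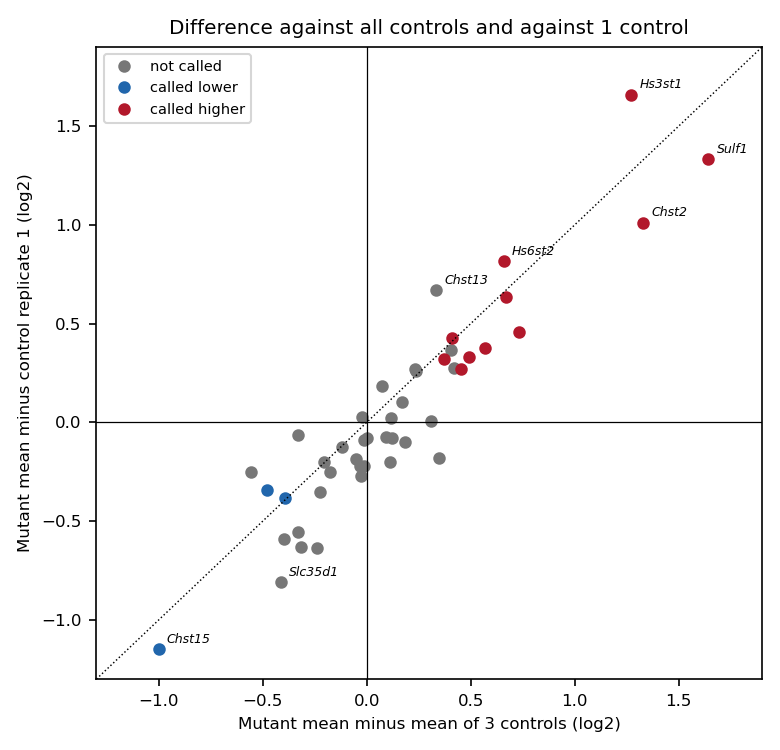
For each of the 46 members, the mutant mean minus control replicate 1 (y axis, log2) against the mutant mean minus the mean of the 3 controls (x axis, log2); the dotted line marks equal values, red and blue mark members called higher and lower. Hs3st1, whose control replicate 1 was below background, lies above the line, and Sulf1 and Chst2 lie below it. Slc35d1 and other grey points lie below the line. The sides on which coloured points lie follow from the lack of overlap with any control.

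Other genes of the pathway were read from the same fit. Of 28 further chain enzymes, nucleotide-sugar enzymes and transporters tested, 1 was called (3.57%, beside 14.7% of all genes). This was Uap1, which makes UDP-N-acetylglucosamine, a building block of heparan, keratan and hyaluronan chains; it averaged 11.13 ± 0.04 in the mutants and 10.19 ± 0.10 in the controls (SD, n = 3 each) and rose by 0.94 (adjusted p = 0.00113). Of 14 core proteins that carry heparan sulfate, 6 rose (42.9%, beside 7.84% of all genes) and none fell. Gpc3, a glypican, averaged 8.48 ± 0.36 in the mutants and 6.06 ± 0.55 in the controls, where 1 of 3 arrays exceeded the background, which limits the size of its rise of 2.42 (adjusted p = 0.00228). Sdc2 and Sdc1, both syndecans, rose by 0.99 and 0.87 and Gpc6 by 0.68 (adjusted p = 0.00704, 0.00544 and 0.0089). Hspg2, which encodes perlecan, differed by -0.35 (adjusted p = 0.0729).

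Of 19 core proteins that carry chondroitin or keratan sulfate, 4 rose and 2 fell (31.6% called, beside 14.7% of all genes). Vcan, which encodes versican, averaged 9.27 ± 0.32 in the mutants and 7.88 ± 0.35 in the controls and rose by 1.39 (adjusted p = 0.00613). Kera and Lum, keratan sulfate proteoglycans, rose by 1.74 and 1.00 (adjusted p = 0.0162 and 0.0192); Kera exceeded the background in 3 mutants and 1 control, which limits the size of its rise, and Lum is also among the fibrous tissue markers. Srgn, the proteoglycan of blood cell granules, fell by 0.69 (adjusted p = 0.0227). Of 18 genes of glycosaminoglycan breakdown, 4 rose and 1 fell (27.8% called, beside 14.7%). Hpse, the heparanase that cuts heparan chains, was below background in all mutants and above it in all controls, at least 1.31-fold lower in the mutants against the background point (adjusted p = 0.00052). Naglu, Hexa and Glb1, lysosomal enzymes that take chains apart, rose by 0.60, 0.57 and 0.41 (adjusted p = 0.00435, 0.00873 and 0.0168). Macrophage marker levels, given above, were higher in the mutants too, while of 8 osteoclast markers 2 rose and 1 fell. The part of these cells in the changes of the breakdown genes was not tested.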

How the data were processed

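Total RNA of 3 Lkb1 mutant and 3 control samples was measured on single-channel Affymetrix arrays, from 300 ng of RNA with biotin-labelled cDNA per the labels' protocols. The values used are intensities as the authors deposited them, on a linear scale (0.74 to 9001, array medians of 82.4 to 90.5); background correction, probe summary and normalisation are not given in the sources used here. All 6 value columns matched a sample, and 3 arrays per group limit the precision.

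Of 35512 probe sets, 21789 were annotated to 1 gene by the platform annotation; 21698 of these were updated by gene number to RefSeq symbols (GRCm38.p6, no coordinates taken except those of the promoters). The intensities were transformed to log2(intensity + 1). The 25% of probe sets with the lowest means (below 5.56) were dropped, and the probe set with the highest mean was kept per gene. limma 3.58.1 in R 4.3.3 (lmFit, eBayes, two-sided, Benjamini-Hochberg over 17020 genes) gave every adjusted p, after a check on simulated data. Permutation tests used scipy 1.17.1.

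The members, lists, pairs and tests were chosen with earlier results of these data known. The array values are given for each called member and, per role, for the member with the highest mean and the uncalled one with the smallest p; Slc26a2, Csgalnact2, Hs6st1 and others were added after their values were seen. Of each other pathway list the called genes with the smallest p, up to 4, are named, and Hspg2 was added after its value was seen. Alternatives were quantile normalisation, median centring, other filters, probe set means, a pseudocount of 16, an intensity trend, a threshold of 0.01, a replicate block, leaving out arrays and, added after the data were seen, leaving out members below background.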

Additional observations from a re-analysis of the deposited data

How the results depend on the processing

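The 14 member calls became 13 with quantile normalisation, 12 with median centring, 12 without a filter, 15 with the lowest 50% of probe sets left out, 14 with probe set means, 15 with a pseudocount of 16 and 15 with an intensity trend. The side of the threshold changed for Chst1 with quantile normalisation (adjusted p = 0.0563), for Ugdh, Chst14, Ext1 and Chst3 with median centring (0.0535, 0.056, 0.0871 and 0.0329), for Ext1 and Chst1 without a filter (0.0598 and 0.0588), for B4galt7 and Sulf2 with the stricter filter (0.0454 and 0.0422), which also removed Hs6st2 before the test, and for Sulf2 with the pseudocount of 16 and the trend (0.0452 and 0.0328). At an adjusted p of 0.01, 5 members were called, 4 higher and 1 lower, and 878 genes in all, 477 higher and 401 lower, where the threshold of 0.05 gave 2496, 1335 and 1161. With 1 array left out, 5 to 17 members were called, 4 to 13 higher and 1 to 4 lower, and 936 to 3282 genes in all, 512 to 1642 higher and 424 to 1640 lower. Same-numbered samples did not pair: deviations from the group means correlated at 0.08, 0.21 and -0.083 for numbers 1, 2 and 3. With the replicate block 11 members were called, 8 higher and 3 lower, and 2031 genes; Ugdh, Chst14, Ext1 and Chst1 were not called under it (adjusted p = 0.0625, 0.0513, 0.0589 and 0.075) and Chst3 was (0.0305). Leaving out the members below background on every array, chosen after seeing the data, gave 13 calls, 10 higher and 3 lower. No called member changed direction under any of these settings. Signal near background limits Hs6st2, Chst7 and the control levels of Sulf1 and Hs3st1. Why the counts moved was not tested, beyond the fewer arrays and the stricter threshold themselves.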
